A study of Rattus norvegicus with 20 samples.

Results

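Solute carriers (SLC proteins) were examined as one set of transcripts in the livers of 20 male rats. A member was any ProbeSet, the group of probes that reads 1 transcript on an Affymetrix RAE230A array, whose annotated gene symbol starts with Slc and a digit and whose mean log2 signal over the 20 arrays was at least 4. *Slc10a1*, *Slc13a2*, *Slc25a20* and *Slc40a1* were left out of the set. This gave 105 ProbeSets for 95 genes, out of 281 SLC ProbeSets (228 genes) with a single symbol and 15923 ProbeSets in all. Of the others 172 lay under the limit of 4, below which a ProbeSet counts as unexpressed, and 4 belonged to the genes left out. Since the members were chosen by their mean signal over all arrays, their levels are given as a description. The members just inside the limit were *Slc31a2* at 4.11, *Slc44a1* at 4.17 and *Slc23a2* at 4.17, and just outside it lay *Slc37a1* at 3.96, *Slc16a10* at 3.94 and *Slc13a1* at 3.81. Of the members, 100 were above the limit in all 5 groups and 5 were under it in at least 1 group.

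Each of 5 groups held 4 rats, 1 array per rat. Sprague-Dawley (S-D) is an outbred strain with wildtype *Ahr*, the gene of the aryl hydrocarbon receptor (AHR), a ligand-activated transcription factor that mediates the toxicity of dioxins. Long-Evans (*Turku/AB*) (L-E) is inbred and also has wildtype *Ahr*, while Han/Wistar (*Kuopio*) (H/W) is a closed colony with a mutant AHR that lacks part of its transactivation domain. Line-A and Line-C descend from crosses of L-E with H/W, Line-A with the mutant receptor and Line-C with the wildtype one. All animals were 10 to 12 weeks old and had received corn oil by gavage 19 hours earlier by the study's methods, though the S-D labels read only control, so no rat had received a dioxin. S-D and H/W rats are not genetically identical among themselves, and Line-A and Line-C may differ in other loci than *Ahr*.

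SLC proteins move small solutes across membranes by facilitated diffusion, by exchange, or by coupling to the gradients of sodium, protons or other ions. In hepatocytes they take up sugars, amino acids, organic acids and metals from the blood, return products such as glucose and ketone bodies to it, and regulate the acid and bicarbonate content of bile. The SLC25 family lies mainly in the inner mitochondrial membrane, where it links the pathways of the matrix with those of the cytosol, the SLC35 family brings nucleotide sugars into the Golgi and endoplasmic reticulum, and the SLC39 and SLC30 families move zinc into and out of the cytosol.

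The arrays were scanned on 5 days. S-D had a scan day and an operator of its own, both lines shared another day, and L-E and H/W were spread over the remaining 3 days, so that differences of S-D from any group, and of a line from a parent strain, cannot be told apart from the scan day. The lines can be compared with each other on 1 day. Array medians ran from 3.47 to 3.69. Of 10 hepatocyte markers 9 were on the array and all 9 were above the limit, with a list mean per rat between 13.58 and 14.02 in every group. Of these, *Apob* passed the F-test described below (adjusted p = 1.39e-06, limma). It was lowest in S-D, at 13.86 ± 0.06 against 14.28 to 14.32 in the other groups. Of 10 cholangiocyte markers 7 were on the array and 2 were above it. Markers of other cells moved with S-D as well. The list mean of the 6 endothelial markers on the array, 4 of them above the limit, was 6.41 to 6.50 in S-D rats against 5.91 to 6.26 in the others, and *Kdr* passed the F-test. That of the 10 stellate cell and fibroblast markers, 8 above the limit, was 5.25 to 5.99 in S-D against 4.47 to 5.29, and *Col1a2*, *Col3a1* and *Lrat* passed, each highest in S-D. The part of these cells in the differences of S-D was not tested. In whole liver, fewer cells of a type and less RNA per cell cannot be told apart. All differences below are log2 signals from 1 limma model of the 15923 ProbeSets with a mean per group, and adjusted p-values are limma's after Benjamini-Hochberg adjustment within each comparison. Values are mean log2 signals ± SD over 4 rats unless said otherwise. Signals of different ProbeSets are not on a per-length scale, so their order is no order of transcript numbers.

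The members had mean signals from 4.11 to 12.9. At the top lay *Slc27a2*, an acyl-CoA synthetase of very long chain fatty acids, and *Slc27a5*, which activates bile acids for conjugation, followed by *Slc25a5*, the mitochondrial ADP/ATP exchanger. By limma's moderated F-test at 0.1% FDR, 15 members (14.3%) differed among the 5 groups, against 4.60% of all ProbeSets and 9.47% of those with a mean signal of at least 4. They were 5 of 18 metal ion ProbeSets (*Slc31a1*, *Slc31a2*, *Slc39a1*, *Slc39a4* and *Slc41a2*), 4 of 19 mitochondrial ones (*Slc25a1*, *Slc25a5*, *Slc25a10* and *Slc25a23*), 2 of 12 for amino acids (*Slc6a6* and *Slc38a3*) and 2 of 8 for inorganic ions and pH (*Slc4a2* and *Slc20a2*). The remaining 2 were *Slc16a12*, among 6 for carboxylates, bile acids and sterols, and *Slc27a5*, among 3 for fatty acids. Despite the class name, those 6 read only *Slc13a3*, *Slc13a4*, *Slc16a1*, *Slc16a7* and *Slc16a12*, none a carrier of bile acids or sterols. No ProbeSet passed among the 13 for nucleotide sugars and acetyl-CoA, the 11 for nucleosides, vitamins and cofactors, the 9 for organic ions and drugs, the 4 for sugars and sugar phosphates, and the 2 for GABA and urea. When scan days entered as a random block 3 members passed, *Slc4a2*, *Slc27a5* and *Slc39a4*, against 1.56% of all ProbeSets. Such a block cannot separate day from group where the groups shared no scan day. This holds below for every pair with S-D and every pair of a line with a parent strain, whether the block kept or removed a call. Without S-D, over the remaining 16 arrays, 3 passed as well, *Slc4a2*, *Slc20a2* and *Slc39a4*, against 1.07% of all ProbeSets.

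**Figure D1:**
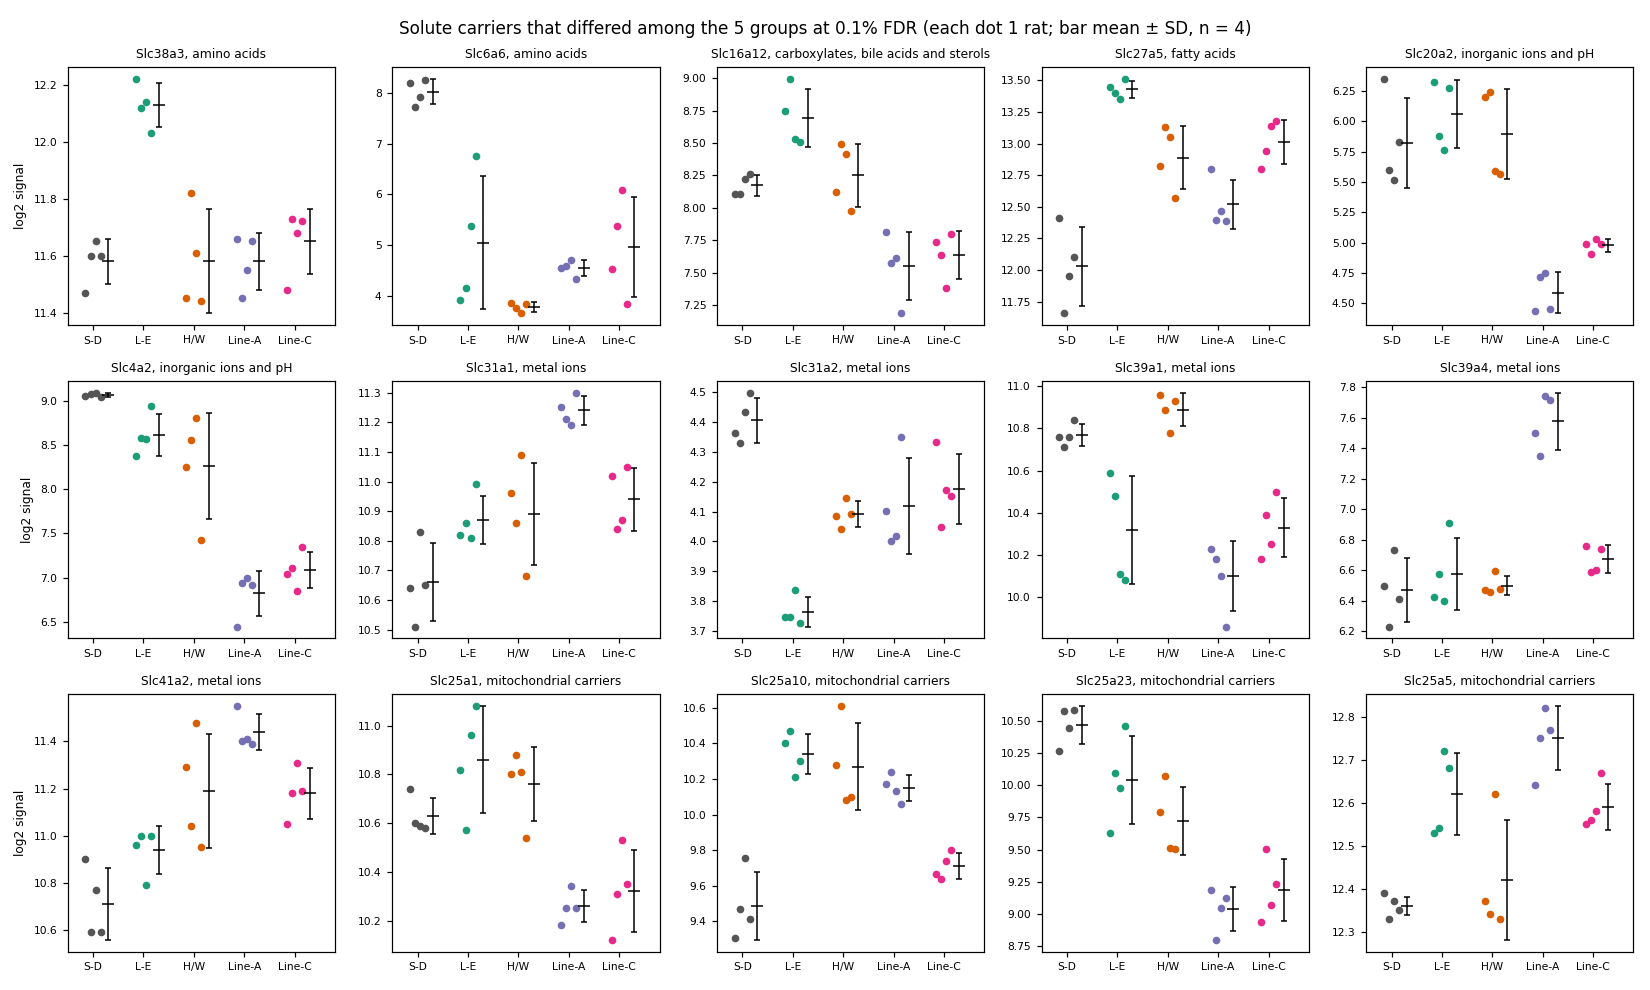
Log2 signals (vertical axis, own range in each panel) of the 15 solute carrier ProbeSets past the F-test in the 5 groups (horizontal axis), with a dot per rat and a black bar for the mean ± SD (n = 4). *Slc39a4* was highest in the 4 Line-A rats, at 7.35 to 7.74, and *Slc4a2* was lower in all 8 rats of the lines than in the other rats.

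The share of the variance that lay within groups (W/T, from 0 where all variance lies between the groups to 1 where none does) had a median of 0.589 over the members and 0.616 over all ProbeSets with a mean of at least 4. It was lowest for metal ions, with a median of 0.418, and highest for sugars and sugar phosphates at 0.841, nucleotide sugars and acetyl-CoA at 0.771 and nucleosides, vitamins and cofactors at 0.7505. Group means of 19 members (18.1%) spanned 1 log2 unit or more, against 12.1% of all ProbeSets with a mean of at least 4. The classes hold few ProbeSets, and their medians were not tested against each other.

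**Figure D2:**
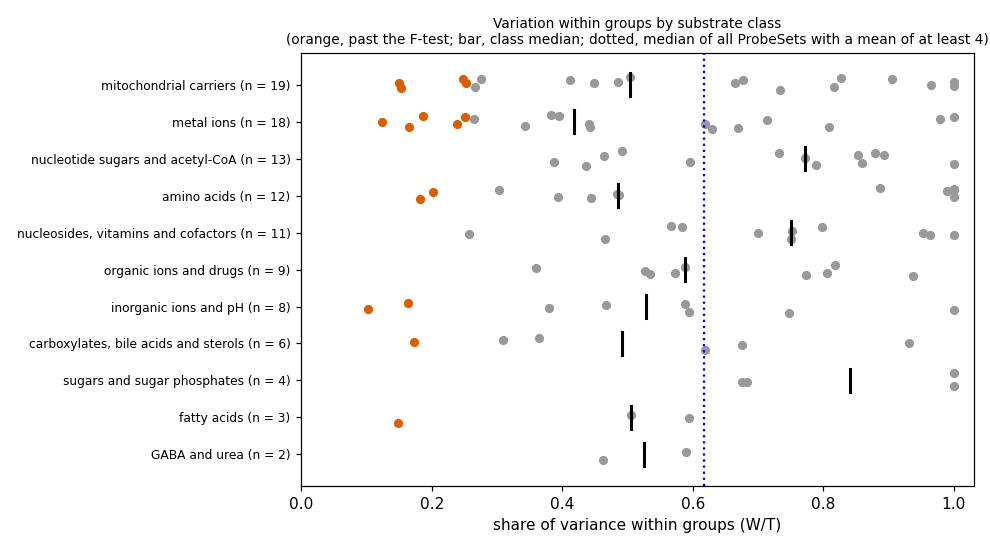
Share of the variance within groups (W/T, horizontal axis) for each of the 105 ProbeSets by substrate class (vertical axis), with ProbeSets past the F-test in orange, a bar at the median of each class and a dotted line at 0.616, the median of all ProbeSets with a mean of at least 4. The metal ion class has the lowest median, 0.418, and the sugar class the highest, 0.841.

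Pairs of groups were compared at 1% FDR, and the shares of all ProbeSets called are given after each count. H/W had 1 member higher (0.590%) and 1 lower (0.791%) than L-E, with 1.38% called in either direction. Line-A had 1 higher (0.264%) and 1 lower (0.270%) than Line-C, with 0.534% in either direction. Against S-D, L-E had 6 higher (2.01%) and 3 lower (3.06%, both 5.07%), H/W 3 higher (0.929%) and 4 lower (2.34%, both 3.27%), Line-A 8 higher (2.63%) and 11 lower (3.97%, both 6.59%) and Line-C 2 higher (1.54%) and 6 lower (2.75%, both 4.30%). Against L-E, Line-A had 4 higher (2.63%) and 12 lower (3.03%, both 5.66%) and Line-C 1 higher (1.69%) and 10 lower (2.02%, both 3.71%). Against H/W, Line-A had 5 higher (1.40%) and 8 lower (1.44%, both 2.84%) and Line-C 1 higher (0.842%) and 4 lower (0.860%, both 1.70%). In all 34 members (32.4%) were called in at least 1 pair, against 14.6% of all ProbeSets and 28.7% of those with a mean of at least 4, so by this count the members lay near the expressed background. Over the expressed ProbeSets the shares in the order of the pairs above were 2.72%, 1.12%, 9.91%, 6.46%, 12.8%, 8.52%, 11.2%, 7.46%, 6.08% and 3.67%, and those of the members 1.9%, 1.9%, 8.57%, 6.67%, 18.1%, 7.62%, 15.2%, 10.5%, 12.4% and 4.76%.

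Single arrays moved several of these counts. Between H/W and L-E 1 member remained called without H/W replicate 1, H/W replicate 2, H/W replicate 4 or L-E replicate 3, and 4 were called without H/W replicate 3. Between the lines 1 was called without Line-A replicate 3 or Line-A replicate 4. The count of 7 between H/W and S-D fell to 4 without H/W replicate 1, and that of 11 between Line-C and L-E to 7 without L-E replicate 4. The 8 calls between Line-C and S-D became 4 without S-D replicate 4 or Line-C replicate 2, and 5 without S-D replicate 1, 2 or 3, L-E replicate 4, Line-A replicate 3, or Line-C replicate 3 or 4. The 13 calls between Line-A and H/W became 6 without H/W replicate 2 or Line-A replicate 4, 7 without H/W replicate 1, and 8 without H/W replicate 3 or Line-A replicate 3. The 5 calls between Line-C and H/W became 3 without S-D replicate 2, 3 or 4, L-E replicate 1 or 3, or Line-A replicate 3 or 4, and 1 without Line-C replicate 3. They became 10 without H/W replicate 4, and 0 by limma without H/W replicate 1 or 2 or Line-C replicate 1 or 2, where 29 to 31 members had an unadjusted p under 0.05.

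**Figure D3:**
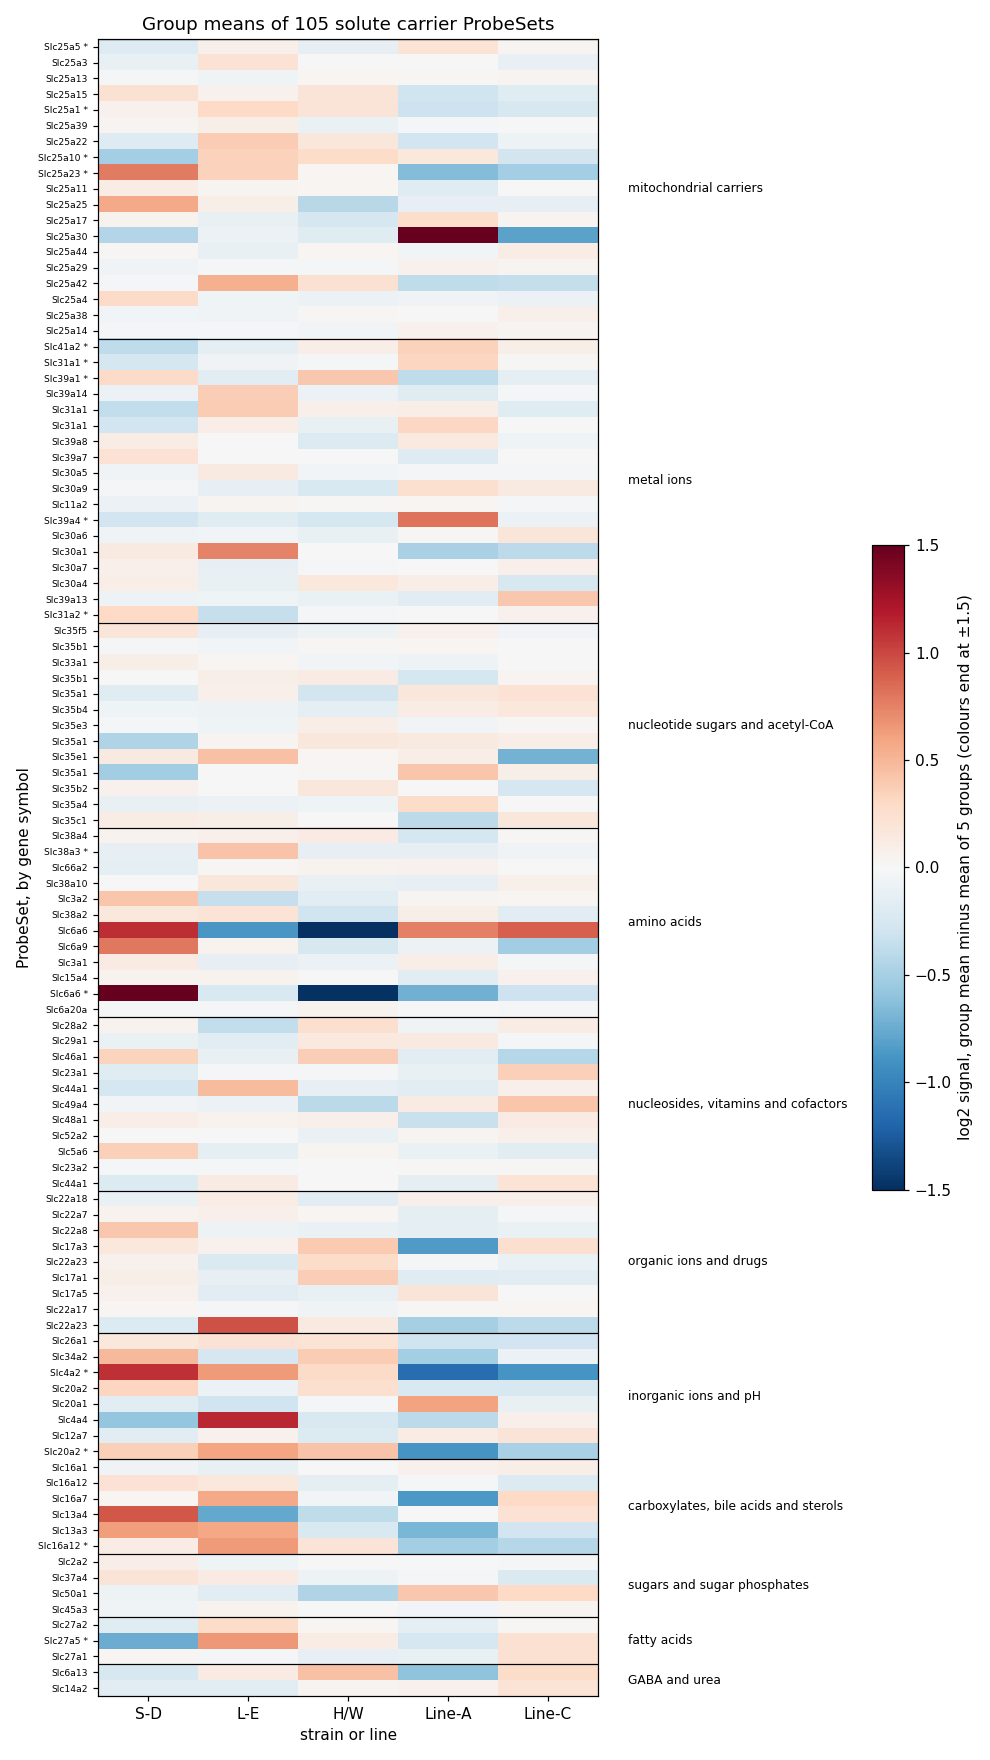
Group means of the 105 solute carrier ProbeSets (rows, by substrate class and then by mean signal) in the 5 groups (columns), as log2 signal minus the mean of the 5 group means, with colours that end at ±1.5 and an asterisk for ProbeSets past the F-test. *Slc6a6* is highest in S-D in both ProbeSets, *Slc4a2* is blue in both lines, and the sugar class shows little colour.

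Among zinc transporters, *Slc39a4* set Line-A apart. It encodes ZIP4, an importer of zinc at the plasma membrane that is best known from the intestine. The 4 Line-A rats were at 7.50, 7.35, 7.74 and 7.72 and the 4 Line-C rats at 6.76, 6.59, 6.60 and 6.74. S-D rats lay between 6.23 and 6.73, L-E rats between 6.40 and 6.91 and H/W rats between 6.46 and 6.59. Each Line-A rat was thus above every other rat. The difference of Line-A from Line-C was 0.90 (standard error 0.12, adjusted p = 0.000416, limma), which is 1.87-fold, and those from S-D, L-E and H/W were 1.1098, 1.0015 and 1.0781. No single array removed any of these 4 calls. The scan day as a random block removed none either (adjusted p = 0.000337 between the lines, limma). Line-A shared no scan day with S-D, L-E or H/W, so for those pairs the block cannot separate group from day.

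*Slc39a1*, which encodes the broadly expressed zinc importer ZIP1, took another order. H/W rats were at 10.96, 10.89, 10.78 and 10.93 and L-E rats at 10.59, 10.48, 10.11 and 10.08, without overlap. S-D rats were at 10.76, 10.71, 10.76 and 10.84. The lines lay with L-E, Line-A between 9.86 and 10.23 and Line-C between 10.18 and 10.50. H/W exceeded L-E by 0.57 (standard error 0.11, adjusted p = 0.00548, limma) and Line-A by 0.80 (adjusted p = 0.000247). The first of these calls was lost without H/W replicate 1, 2 or 4 or L-E replicate 3 or 4, where the adjusted p reached 0.0210, and with equal array medians (adjusted p = 0.0165). Over the 5 H/W and L-E arrays that were scanned on the same day the difference was 0.61 (adjusted p = 0.383), and with the day as a fixed block over their 8 arrays it was 0.54 (adjusted p = 0.202).

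*Slc39a8*, which encodes the zinc, manganese and iron importer ZIP8, was lowest in H/W, at 8.97 ± 0.06 against 9.28 ± 0.06 in S-D and 9.32 ± 0.08 in Line-A. All H/W rats were below all S-D and Line-A rats, and the differences, 0.32 from S-D (adjusted p = 0.00206) and 0.35 from Line-A (adjusted p = 0.00114), held without any 1 array, while neither passed 1% FDR in the fit with scan days as a random block (adjusted p = 0.0178 and 0.0114). The difference from Line-A was also lost with equal array medians (adjusted p = 0.0117). *Slc39a14*, ZIP14, an importer of zinc and iron of the hepatocyte surface, reached 10.27 ± 0.18 in L-E and 9.72 to 9.88 elsewhere and did not pass the F-test (adjusted p = 0.0834). Among the zinc exporters *Slc30a1*, the exporter of the plasma membrane, averaged 7.14 ± 0.35 in L-E against 5.91 ± 0.28 in Line-A, a difference of 1.23 that was called (adjusted p = 0.00202), though its F-test was not (adjusted p = 0.0046). The call was lost with scan days as a random block (adjusted p = 0.0243). *Slc30a5*, *Slc30a7* and *Slc11a2*, the divalent metal transporter, spanned 0.13 to 0.20 between their group means.

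Copper carriers did not share an order of the groups. *Slc31a1* encodes CTR1, the high-affinity copper importer, and 3 ProbeSets read it. In the ProbeSet with the highest signal Line-A rats were at 11.25, 11.21, 11.19 and 11.30, above every other rat, and S-D rats at 10.64, 10.51, 10.83 and 10.65. Line-A exceeded S-D by 0.58 (standard error 0.08, adjusted p = 0.000128, limma) in this ProbeSet and by 0.59 (adjusted p = 0.00231) in a second, while in the third L-E was highest, at 10.16 ± 0.23 against 9.42 ± 0.17 in S-D, and Line-A was 9.88 ± 0.16. All 3 were thus lowest in S-D and they disagreed on the highest group. The F-test of the first (adjusted p = 0.000943) was lost on leaving out any 1 of 16 arrays, at most 0.00424, and was kept without S-D replicate 3, L-E replicate 4, or H/W replicate 3 or 4. With equal array medians it was lost too (adjusted p = 0.0149), as was the difference of Line-A from S-D in the second ProbeSet (adjusted p = 0.0128).

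*Slc31a2* encodes CTR2, a related protein of endosomes and lysosomes, and its ProbeSet had the lowest mean of all members. L-E rats were at 3.75, 3.75, 3.84 and 3.73, under the limit of expression, and S-D rats at 4.36, 4.33, 4.43 and 4.50. The fitted difference of 0.64 (adjusted p = 1.27e-05, limma) is therefore at least 0.41 when L-E is set to the limit. *Slc41a2*, a magnesium transporter with the highest signal of the metal class, averaged 10.71 ± 0.15 in S-D against 11.44 ± 0.08 in Line-A, a difference of 0.72 (standard error 0.10, adjusted p = 0.000148). Its F-test (adjusted p = 0.000677) was lost without any 1 of 15 arrays, at most 0.00276, and kept without S-D replicate 1, H/W replicate 2, 3 or 4, or Line-C replicate 1. With equal array medians it was lost as well (adjusted p = 0.00793).

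Of the mitochondrial carriers, 1 of dicarboxylates, 1 of citrate and 2 of adenine nucleotides passed the F-test. *Slc25a10*, the dicarboxylate carrier that exchanges malate or succinate for phosphate, was low in S-D and Line-C. S-D rats were at 9.31, 9.47, 9.76 and 9.41 and Line-C rats at 9.66, 9.64, 9.74 and 9.80. L-E rats lay between 10.21 and 10.47, H/W rats between 10.08 and 10.61 and Line-A rats between 10.06 and 10.24, so that these 3 groups did not overlap with the other pair. L-E exceeded S-D by 0.86 (standard error 0.11, adjusted p = 5.2e-05, limma) and Line-C by 0.63 (adjusted p = 0.00151). With scan days as a random block the first call was kept and the second lost (adjusted p = 0.00119 and 0.0214). L-E shared no scan day with S-D or Line-C, so the block cannot separate group from day. Line-A and Line-C were 10.15 ± 0.07 and 9.71 ± 0.07 and their difference was not called at 1% FDR.

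*Slc25a23*, a calcium-regulated carrier that exchanges ATP-magnesium for phosphate, was highest in S-D at 10.27, 10.58, 10.45 and 10.59. Line-A rats were at 9.18, 8.79, 9.04 and 9.12 and Line-C rats at 8.94, 9.50, 9.06 and 9.23, all below every S-D rat. The parent strains lay between, L-E at 10.04 ± 0.34 and H/W at 9.72 ± 0.27. Line-A was 2.71-fold lower than S-D (log2 difference -1.44, standard error 0.17, adjusted p = 2.59e-05, limma) and 2.01-fold lower than L-E (adjusted p = 0.000943), and both calls held without any 1 array. With scan days as a random block the first call was kept and the second lost (adjusted p = 0.000897 and 0.0141). Line-A shared no scan day with S-D or L-E, so neither outcome separates group from day.

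*Slc25a1*, the citrate carrier that supplies the cytosol with acetyl units for fatty acid and sterol synthesis, was 10.86 ± 0.22 in L-E and 10.76 ± 0.15 in H/W. Line-A rats were at 10.18, 10.25, 10.34 and 10.25 and Line-C rats at 10.12, 10.31, 10.53 and 10.35, all below every L-E and H/W rat. The differences from L-E were -0.60 for Line-A (adjusted p = 0.00106, limma) and -0.53 for Line-C (adjusted p = 0.00349). The Line-C call was lost without L-E replicate 3 or 4 or Line-C replicate 1 or 2, at most 0.0127. With scan days as a random block both calls were lost (adjusted p = 0.0163 and 0.0435). The F-test (adjusted p = 0.000946) was lost without any 1 of 17 arrays, at most 0.00273, and kept without L-E replicate 2, H/W replicate 4 or Line-C replicate 3.

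*Slc25a5*, the ADP/ATP carrier of the inner membrane, had the highest signal of the mitochondrial class and differed by little, from 12.36 ± 0.02 in S-D to 12.75 ± 0.07 in Line-A. The difference of 0.39 (adjusted p = 0.000376, limma) was lost when the array medians were set equal (adjusted p = 0.0155). Its F-test (adjusted p = 0.000963) was lost without any 1 of 18 arrays, at most 0.00337, and kept without H/W replicate 3 or Line-A replicate 1. *Slc25a4*, the other ADP/ATP carrier on the array and the form of muscle and heart, was near 5.5 in all groups but S-D, at 5.85 ± 0.36 (F-test, adjusted p = 0.18). *Slc25a15*, the ornithine carrier of the urea cycle, averaged 11.40 ± 0.08 in S-D against 10.88 ± 0.15 in Line-A (adjusted p = 0.00132). That call was lost with scan days as a random block (adjusted p = 0.0241). *Slc25a13*, the aspartate/glutamate carrier of the same cycle, had group means from 11.30 to 11.40 (F-test, adjusted p = 0.907). *Slc25a3*, the phosphate carrier, was 11.63 ± 0.05 in L-E and 11.30 ± 0.06 in S-D (adjusted p = 0.000643).

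The largest range of any member was that of *Slc6a6*, the sodium-dependent transporter of taurine, which hepatocytes use to conjugate bile acids and to control their volume. In the first of its ProbeSets S-D rats were at 8.19, 7.72, 7.92 and 8.25. L-E rats were at 3.92, 4.15, 5.38 and 6.75, H/W rats at 3.87, 3.77, 3.67 and 3.85, Line-A rats at 4.56, 4.60, 4.70 and 4.34 and Line-C rats at 4.53, 5.39, 6.09 and 3.84. All S-D rats were above all others, all H/W rats were under the limit of expression, and L-E and Line-C rats spread widely. S-D exceeded H/W by at least 4.02, or 16.2-fold, when H/W is set to the limit (adjusted p = 5.2e-05, limma), and L-E by 2.97, or 7.83-fold (standard error 0.50, adjusted p = 0.000971).

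The second *Slc6a6* ProbeSet gave another order. S-D rats were at 9.03, 8.63, 8.58 and 8.51, Line-A rats at 7.72, 9.25, 8.40 and 7.98 and Line-C rats at 8.39, 8.59, 8.94 and 7.98. L-E rats were at 6.76, 5.65, 6.81 and 7.62 and H/W rats at 5.07, 4.42, 5.50 and 7.75. Both ProbeSets were thus highest in S-D and lowest in H/W, but the lines lay near S-D in the second ProbeSet and near L-E in the first. In the second, S-D exceeded H/W by 3.01 (standard error 0.56, adjusted p = 0.00299), a call lost without S-D replicate 1 or H/W replicate 1 or 2, at most 0.0124. Line-A and Line-C exceeded H/W by 2.65 and 2.79 (adjusted p = 0.0082 and 0.00861), calls that were kept without any 1 of H/W replicate 4, L-E replicate 2 or 4 or Line-A replicate 1, and in Line-C also Line-A replicate 2, and lost without any other array. With scan days as a random block the calls of S-D, Line-A and Line-C against H/W were all lost (adjusted p = 0.0204, 0.0489 and 0.05235). Those of Line-A and Line-C were also lost with equal array medians (adjusted p = 0.0119 and 0.0120). Which transcripts the ProbeSets read was not examined.

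**Figure D4:**
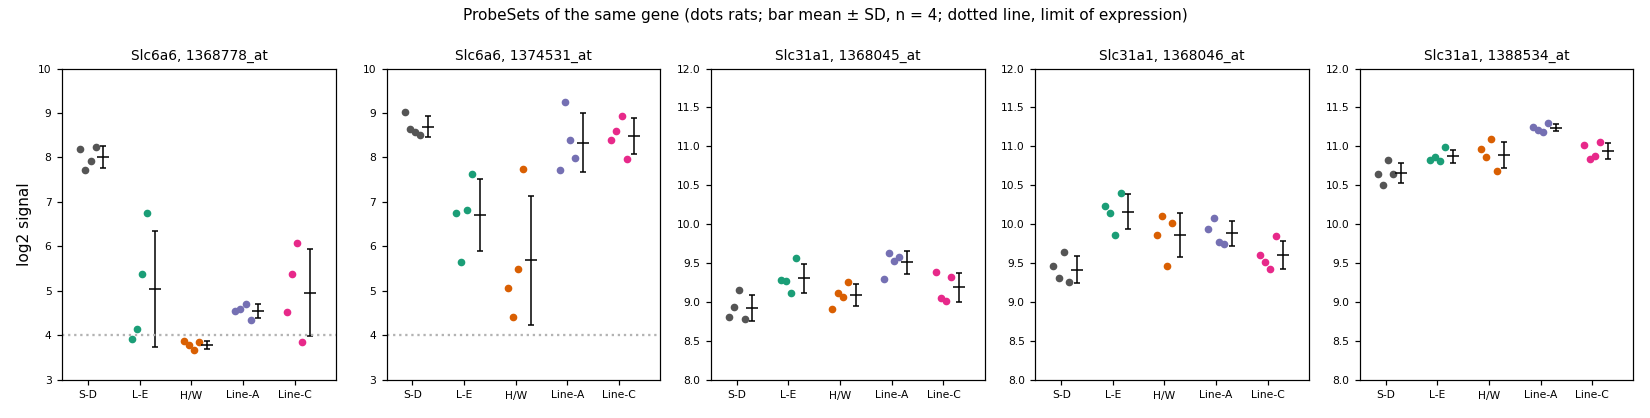
Log2 signals (vertical axis) of the 2 *Slc6a6* and 3 *Slc31a1* ProbeSets in the 5 groups (horizontal axis), with a dot per rat, a black bar for the mean ± SD (n = 4) and, in the *Slc6a6* panels, a dotted line at the limit of expression, 4. Line-A and Line-C lie near 4.55 and 4.96 in the first *Slc6a6* ProbeSet and near 8.34 and 8.47 in the second, and the *Slc31a1* ProbeSets are lowest in S-D in all 3.

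*Slc38a3*, which encodes SNAT3, the exchanger by which liver takes up or releases glutamine, was high in L-E. L-E rats were at 12.22, 12.12, 12.14 and 12.03, and H/W rats at 11.45, 11.82, 11.61 and 11.44. S-D, Line-A and Line-C rats lay between 11.45 and 11.73, so that every L-E rat was above every other rat. H/W was lower than L-E by 0.55 (log2 difference -0.55, standard error 0.08, adjusted p = 0.000811, limma), a call that no single array removed. The F-test was lost without L-E replicate 1, 2 or 3, at most 0.0021. Over the 5 arrays of 1 scan day the difference from L-E was -0.38 (adjusted p = 0.350), and with the day as a fixed block -0.50 (adjusted p = 0.170).

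Among the other amino acid carriers, *Slc38a4*, the related neutral amino acid transporter of liver, had a high signal in every group, from 11.86 ± 0.15 in Line-A to 12.24 ± 0.09 in H/W (F-test, adjusted p = 0.026). *Slc3a2*, the heavy chain that carries several amino acid exchangers to the cell surface, was 9.13 ± 0.26 in S-D and 8.37 ± 0.17 in L-E (difference 0.76, adjusted p = 0.00226), a call lost without L-E replicate 1 (adjusted p = 0.0101). The *Slc3a2* call was also lost with scan days as a random block (adjusted p = 0.0108). *Slc6a13*, a transporter of GABA and taurine of the hepatocyte surface, was 9.53 ± 0.57 in Line-A and 9.89 to 10.57 elsewhere (F-test, adjusted p = 0.020).

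*Slc4a2*, which encodes the chloride/bicarbonate exchanger AE2, had the smallest share of variance within groups of all members. S-D rats were at 9.05, 9.08, 9.09 and 9.05, L-E rats at 8.37, 8.58, 8.57 and 8.94 and H/W rats at 8.25, 8.56, 8.80 and 7.43. Line-A rats were at 6.45, 6.94, 6.999 and 6.91 and Line-C rats at 7.05, 7.11, 6.85 and 7.34. All 8 rats of the lines were below all 12 others, with H/W replicate 4 the nearest. Line-A was 3.46-fold lower than L-E (log2 difference -1.79, standard error 0.22, adjusted p = 8.26e-05, limma) and 2.71-fold lower than H/W (adjusted p = 0.000784). Line-C was 2.88-fold lower than L-E (adjusted p = 0.000483) and 2.26-fold lower than H/W (adjusted p = 0.0054), and the last call was lost without H/W replicate 1, 2 or 3 or Line-C replicate 1, 2 or 3, at most 0.0215. That call was also lost with scan days as a random block, array weights and the replicate block (adjusted p = 0.0320, 0.0186 and 0.0113). The lines differed from each other by 0.26 (log2 difference -0.26, standard error 0.22), which was not called. AE2 also secretes bicarbonate in cholangiocytes. Of the cholangiocyte markers above the limit, *Epcam* was 6.45 ± 0.27 in S-D, 5.49 ± 0.17 in L-E, 5.26 ± 0.22 in H/W, 5.38 ± 0.18 in Line-A and 5.82 ± 0.24 in Line-C (F-test, adjusted p = 0.000135), and *Onecut1* ran from 2.85 to 9.62 over the rats. List means of the 7 markers lay between 3.21 and 4.16, and the part of these cells in the level of *Slc4a2* was not tested.

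*Slc20a2*, a sodium/phosphate cotransporter of the plasma membrane, was also lowest in both lines in 1 ProbeSet, though the strains took another order, with S-D below L-E and H/W. Line-A rats were at 4.43, 4.72, 4.75 and 4.45 and Line-C rats at 4.99, 4.91, 5.03 and 4.99, while the lowest of the other 12 rats was at 5.51. Line-A was 2.78-fold lower than L-E (log2 difference -1.47, standard error 0.19, adjusted p = 0.000125, limma) and Line-C 2.12-fold lower (adjusted p = 0.00201). With scan days as a random block the first call was kept and the second lost (adjusted p = 0.00211 and 0.0216). The lines shared no scan day with L-E, so the block cannot separate group from day. A second ProbeSet of the gene lay at 6.59 ± 0.21 in Line-A beside 6.58 ± 0.33 in Line-C, against 6.74 to 7.14 elsewhere and did not pass the F-test (adjusted p = 0.0553). *Slc4a4*, a sodium/bicarbonate cotransporter, was 7.24 ± 0.86 in L-E with rats from 6.35 to 8.27 and 5.53 ± 0.30 in S-D, a 3.27-fold difference (adjusted p = 0.00297) that was lost without S-D replicate 2 or 3 or L-E replicate 1 (adjusted p at most 0.0126). The scan day as a random block removed that call too (adjusted p = 0.0298). *Slc26a1*, the sulfate/oxalate exchanger with the highest signal of this class, averaged 10.77 ± 0.25 in Line-A beside 10.78 ± 0.08 in Line-C, and 11.23 to 11.29 in the strains (F-test, adjusted p = 0.022).

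*Slc27a5*, the bile acyl-CoA synthetase, was lowest in S-D. S-D rats were at 12.41, 11.66, 11.95 and 12.10, and L-E rats at 13.45, 13.40, 13.35 and 13.51, with the means of the other groups between. L-E exceeded S-D 2.64-fold (log2 difference 1.40, standard error 0.15, adjusted p = 1.08e-05, limma) and Line-A by 0.91 (adjusted p = 0.000822). Line-C exceeded S-D by 0.98 (adjusted p = 0.000333). The call of L-E against S-D and that of Line-C against S-D held in the fit with scan days as a random block. That of L-E against Line-A did not (adjusted p = 0.0134). No pair compared here shared a scan day, so that fit cannot separate group from day. *Slc27a2* spanned 0.45 between its group means (F-test, adjusted p = 0.0554).

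Of the monocarboxylate carriers, *Slc16a12*, a transporter of creatine, was low in both lines in 1 of its ProbeSets. L-E rats were at 8.75, 8.99, 8.53 and 8.51, Line-A rats at 7.82, 7.58, 7.61 and 7.19 and Line-C rats at 7.74, 7.63, 7.38 and 7.80. H/W rats, between 7.97 and 8.50, were also above all rats of the lines. Line-A was 2.21-fold and Line-C 2.08-fold lower than L-E (adjusted p = 9.63e-05 and 0.000282, limma), and both calls held without any 1 array. The other ProbeSet had a higher signal, from 9.09 ± 0.24 in Line-C to 9.51 ± 0.13 in S-D, and did not pass the F-test (adjusted p = 0.0857). *Slc16a7*, MCT2, a high-affinity lactate and pyruvate transporter, was 8.13 ± 0.51 in Line-A and 9.56 ± 0.12 in L-E (adjusted p = 0.000842). *Slc16a1*, MCT1, which carries lactate and ketone bodies, had group means from 9.85 to 10.05 (F-test, adjusted p = 0.326).

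No carrier of sugars, drugs or cofactors passed the F-test, against 9.47% of all ProbeSets with a mean of at least 4. These classes held 4, 9 and 11 ProbeSets, too few to tell the lack of a call from that share. *Slc2a2*, GLUT2, through which hepatocytes exchange glucose with blood, spanned 0.16 between its highest and lowest group means with a pooled SD within groups of 0.21 (F-test, adjusted p = 0.842). *Slc37a4*, the glucose-6-phosphate carrier that feeds the last step of glucose production, spanned 0.41 (adjusted p = 0.0863). *Slc22a7*, the organic anion transporter OAT2, spanned 0.22, and *Slc22a18*, a transporter-like gene of an imprinted region, 0.27. *Slc17a3*, a urate and organic anion transporter, was called in pairs with Line-A. Line-A rats were at 8.37, 8.47, 8.31 and 7.33 and H/W rats at 9.20, 9.48, 9.50 and 9.31, and Line-A was 2.38-fold lower (log2 difference -1.25, standard error 0.23, adjusted p = 0.00379, limma), a call lost without H/W replicate 2 or 3 (at most 0.0128). That call was lost with scan days as a random block as well (adjusted p = 0.0319). The neighbour of *Slc17a3* on chromosome 17, *Slc17a1*, was 7.58 ± 0.31 in Line-A and 8.13 ± 0.14 in H/W and was called in no pair. In the nucleotide sugar class *Slc35e1*, whose substrate is uncertain, was 5.34 ± 0.57 in Line-C and 6.49 ± 0.32 in L-E (adjusted p = 0.00717), a call lost without S-D replicate 3 or 4, any L-E rat, or Line-C replicate 2 or 3 (at most 0.0254). With scan days as a random block it was lost too (adjusted p = 0.0551).

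A line was called outside both parents where it differed from L-E and from H/W in the same direction at 5% FDR. Line-A was outside in 16 members (15.2%), 11 lower and 5 higher, against 4.12% of all ProbeSets and 8.66% of those with a mean of at least 4. Line-C was outside in 7 (6.67%), 5 lower and 2 higher, against 2.14% and 4.65%. In 5 members both lines were outside, with *Slc4a2*, *Slc16a12*, *Slc20a2* and *Slc25a1* lower and the second *Slc6a6* ProbeSet higher. Line-A alone was lower in *Slc6a13*, *Slc16a7*, *Slc17a3*, *Slc25a15*, *Slc25a23*, *Slc38a4* and *Slc48a1* and higher in *Slc25a17*, a carrier of coenzyme A in peroxisomes, *Slc30a9*, *Slc31a1* and *Slc39a4*. Line-C alone was lower in *Slc25a10* and higher in *Slc30a6*, an exporter of zinc into the Golgi. That a member was called in 1 line only does not show that the lines differ in it. Both lines shared a scan day that no parent array had, and with the day as a random block 8 of the 23 calls were kept, those of *Slc4a2* in both lines, *Slc16a12*, *Slc20a2*, *Slc25a1*, *Slc39a4* and *Slc48a1* in Line-A and *Slc25a10* in Line-C. Without any 1 array 11 were kept in every case, 8 in Line-A and 3 in Line-C.

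The promoters of *Slc4a2*, *Slc16a12* and *Slc25a1* are shown because both lines were called below both parents in a ProbeSet of each gene. For *Slc16a12* this held in 1 of its ProbeSets only. In the other, which had the higher signal, the mean of Line-A, at 9.264, lay above that of H/W, at 9.155. The Line-C calls of *Slc16a12* and *Slc25a1* were lost once scan days entered the fit as random effects. Leaving out some single arrays removed them too. The groups also differ in AHR, whose complex with ARNT binds the core letters GCGTG of the dioxin response element. The low level was shared by Line-A, with the mutant receptor, and Line-C, with the wildtype one. A part of AHR in it was not tested. The promoter windows run from 250 bases before to 50 bases after an annotated start. They read 5′ to 3′ on the strand of the gene, from RefSeq on GRCr8, the genome of another strain. Capitals mark GCGTG or its reverse complement CACGC. *Slc4a2* lies at chr4:11645353-11645652 on the minus strand, *Slc16a12* at chr1:241621667-241621966 on the minus strand and *Slc25a1* at chr11:96559804-96560103 on the plus strand.
Slc4a2: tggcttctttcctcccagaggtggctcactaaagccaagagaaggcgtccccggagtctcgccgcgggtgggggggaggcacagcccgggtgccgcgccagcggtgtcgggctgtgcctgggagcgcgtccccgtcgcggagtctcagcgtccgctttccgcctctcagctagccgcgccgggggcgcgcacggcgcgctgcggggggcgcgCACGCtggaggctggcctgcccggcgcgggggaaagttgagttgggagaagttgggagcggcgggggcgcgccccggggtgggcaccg
Slc16a12: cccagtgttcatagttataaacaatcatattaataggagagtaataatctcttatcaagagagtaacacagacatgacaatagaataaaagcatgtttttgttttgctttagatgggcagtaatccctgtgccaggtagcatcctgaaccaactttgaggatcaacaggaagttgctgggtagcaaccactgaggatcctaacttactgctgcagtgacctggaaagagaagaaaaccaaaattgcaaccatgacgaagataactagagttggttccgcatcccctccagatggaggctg
Slc25a1: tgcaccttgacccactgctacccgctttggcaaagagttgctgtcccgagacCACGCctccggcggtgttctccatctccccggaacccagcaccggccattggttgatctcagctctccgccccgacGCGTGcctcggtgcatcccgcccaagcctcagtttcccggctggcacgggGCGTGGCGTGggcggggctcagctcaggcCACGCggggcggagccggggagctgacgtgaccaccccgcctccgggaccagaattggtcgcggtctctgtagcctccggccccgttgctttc
The window of *Slc4a2* holds 1 such core, that of *Slc16a12* holds 0 and that of *Slc25a1* holds 5. On the minus strand the genes *Slc4a2* and *Slc16a12* begin at 11646961 and 241674821. Their windows therefore lie inside the genes, and the outermost starts were not read. *Slc20a2*, the other gene low in both lines, has no entry among the promoters used here. Of all 33469 promoters of this length 29.70% hold at least 1 on either strand, and of the 89 promoters found for 82 member genes 53.93% do. The GC box letters GGGCGG, or CCGCCC on the other strand, were in 33.06% of all promoters and in 64.04% of those of the members. The letters TATAAA, or TTTATA, were in 14.22% and 7.87%. The match of letters shows no binding, and GC content was not balanced between these sets.

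H/W and Line-A carry the mutant AHR and L-E and Line-C the wildtype one, so that the difference of H/W from L-E can be set against that of Line-A from Line-C. In 8 members (7.62%) these differences were unequal at 5% FDR, against 2.01% of all ProbeSets and 4.13% of those with a mean of at least 4. The largest gaps were 1.42 for *Slc17a3* (0.33 in the strains and -1.09 in the lines, adjusted p = 0.0336, limma), -0.98 for *Slc39a4* (-0.08 and 0.90, adjusted p = 0.00354) and 0.81 for *Slc39a1* (0.57 and -0.23, adjusted p = 0.00725). The others were *Slc38a3* at -0.48, *Slc48a1* at 0.48, *Slc39a8* at -0.42, *Slc25a5* at -0.36 and *Slc25a3* at -0.33. Of the 8, *Slc39a1*, *Slc39a4*, *Slc39a8* and *Slc48a1* were called whichever 1 array was left out. The count became 5 without L-E replicate 1, 2 or 3, H/W replicate 4, Line-A replicate 3 or Line-C replicate 3. With equal array medians 4 were called, *Slc38a3*, *Slc39a1*, *Slc39a4* and *Slc39a8*.

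**Figure D5:**
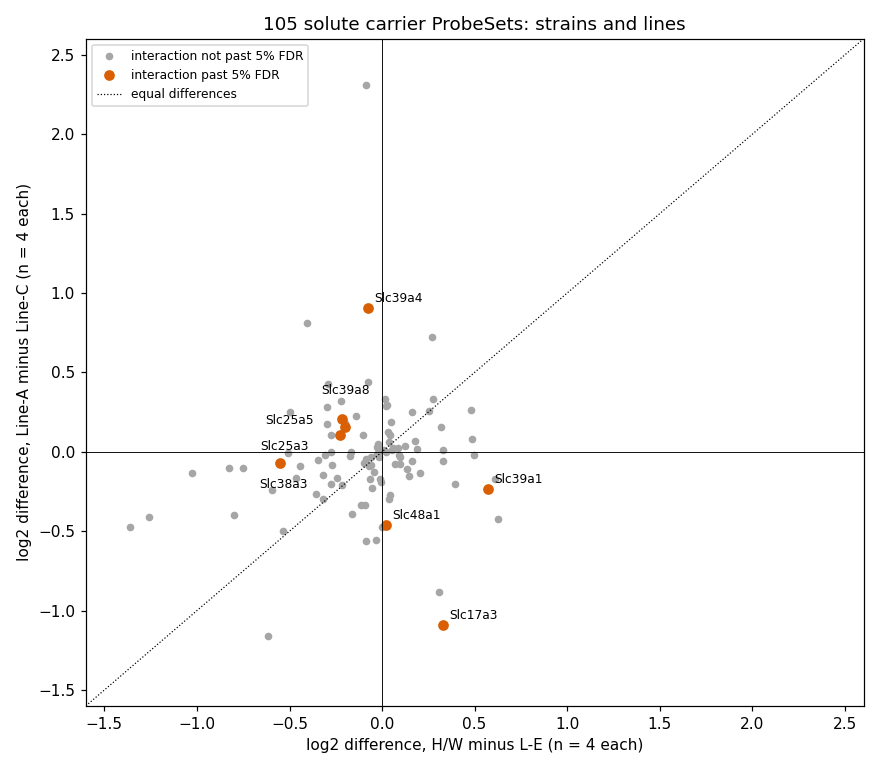
Log2 difference of H/W from L-E (horizontal axis) and of Line-A from Line-C (vertical axis) for the 105 ProbeSets (n = 4 rats per group), with the 8 whose 2 differences were unequal at 5% FDR named in orange and a dotted line where they are equal. *Slc39a4* lies at -0.08 and 0.90 and *Slc39a1* at 0.57 and -0.23.

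An *Ahr* coefficient, from an additive model in which each line has an equal part of both parents and the genotype of *Ahr* is a term of its own, was called in 1 member at 5% FDR, against 0.659% of all ProbeSets and 1.38% of those with a mean of at least 4. This was *Slc48a1*, which encodes HRG1, a transporter that brings heme out of lysosomes and that macrophages use after taking up red cells. Line-A rats were at 5.78, 6.03, 5.67 and 5.74, and Line-C rats at 6.18, 6.18, 6.21 and 6.49. S-D, L-E and H/W rats lay between 6.16 and 6.37, so that Line-A was below all other rats while H/W, with the same receptor, was not below L-E (6.22 ± 0.05 and 6.19 ± 0.04). The coefficient was -0.46 (standard error 0.09, adjusted p = 0.0237, limma). It was lost without Line-A replicate 1, 3 or 4 or Line-C replicate 4 (adjusted p at most 0.0935), where 16 to 20 members had an unadjusted p under 0.05, and with equal array medians (adjusted p = 0.0857). Line-A was also below Line-C by 0.46 (log2 difference -0.46, standard error 0.07, adjusted p = 0.00318), a call lost without Line-A replicate 3 or 4 (at most 0.0155) and with array weights (adjusted p = 0.0127). Kupffer cell and macrophage markers numbered 12, of which 8 were on the array, all above the limit, and 5 passed the F-test, and their list mean was 7.52 to 7.62 in Line-A against 7.96 to 8.80 in the other rats. The part of these cells in the level of *Slc48a1* was not tested.

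Some members varied widely between rats of a group. *Slc25a30*, a mitochondrial carrier of the kidney and other tissues, had the largest SD within groups, 1.04. L-E rats were at 8.74, 8.07, 8.79 and 5.37 and Line-A rats at 8.85, 7.80, 10.27 and 10.46. Its group means spanned 2.31, from 7.03 in Line-C to 9.34 in Line-A, but it was called in no pair and did not pass the F-test (adjusted p = 0.0851). The *Slc6a6* ProbeSets came next, with pooled SDs of 0.74 in the first, which passed the F-test, and 0.83 in the second. *Slc13a4*, a sulfate transporter, spanned 1.71 with a pooled SD of 0.69 and did not pass (adjusted p = 0.0632).

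Of 44 listed genes of other membrane transporter families 34 were on the array and 23 were above the limit, and of these 23 there were 3 past the F-test, all of them organic anion transporters. *Abcg8*, a sterol exporter with a mean under the limit, passed as well (adjusted p = 0.000571), with 4.92 ± 0.67 in Line-C and group means of 2.68 to 3.38 elsewhere. *Slco1b2*, the main hepatic uptake carrier of this family, was 11.52 ± 0.13 in H/W and 11.95 ± 0.14 in Line-A against 12.33 to 12.40 in the groups with wildtype *Ahr* (F-test, adjusted p = 3.87e-06). *Slco2b1*, a carrier of steroid sulfates, was 9.36 ± 0.10 in L-E against 8.01 to 8.40, and *Slco2a1*, a prostaglandin transporter, ran from 11.21 ± 0.12 in S-D to 11.94 ± 0.09 in Line-A. *Atp7b*, the copper ATPase of the liver, was 7.08 ± 0.10 in L-E against 6.72 to 6.81 and fell short of the threshold (F-test, adjusted p = 0.0012), as did the bile salt exporter *Abcb11* (adjusted p = 0.0079), with 11.41 ± 0.19 in S-D and 10.30 ± 0.13 in Line-A.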

How the data were processed

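Liver RNA of 20 rats was hybridised to 20 Affymetrix RAE230A arrays. The authors deposited log2 signals per ProbeSet made by GC-RMA, which corrects background by probe GC content, sets the arrays to 1 distribution and summarises the probes. The submitters' processing notes name R 2.6.1, affy 1.12.0 and GCRMA 2.10.0. Scan days were read from the deposited header files, other text that holds no expression values. No array was identical to another, and the highest correlation of 2 arrays was 0.99751.

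A mean per group was fitted to all 15923 ProbeSets with limma 3.58.1 in R 4.3.3 (statmod 1.5.0 for the random block), without a filter. The F-test was called at 0.1% FDR, pairs at 1%, and the *Ahr* coefficient, the lines against both parents and the difference between strains and lines at 5%. The number of arrays limits the precision. The labels do not say that rats were littermates, and each array counted as 1 replicate. On simulated data of this size, a log2 change of 1 was recovered in 85 of 100 altered ProbeSets for the pair of L-E with H/W. The F-test recovered 68. For a change of 0.5 the counts were 35 and 17. The simulation drew independent normal noise per array, without a scan day effect. It shifted only L-E, in ProbeSets with a mean of at least 4, so these rates do not cover the confounding with the day.

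The members, substrate classes, marker lists and tests were chosen with earlier results of these data known. *Slc6a20a* and *Slc14a* symbols were added to their classes after the files were read. Named genes were those past the F-test, called for *Ahr*, outside both parents or unequal between strains and lines, the highest and lowest of each class, the largest called differences of each pair, those nearest the limit, the 3 most variable within groups, other ProbeSets of these genes and a list of textbook hepatocyte carriers. *Slc11a2*, *Slc13a4*, *Slc17a1*, *Slc25a4*, *Slc30a1*, *Slc30a5* and *Slc30a7* were named after their values were seen. Of the textbook carriers *Slc22a5* and *Slc7a2* lay under the limit. Symbols come from the platform annotation. Alternatives were a further quantile normalisation, equal array medians, only ProbeSets with a mean of at least 4, a variance trend, array weights, a replicate block, the scan day as a random block and each array left out. The F-test without S-D and the values within 1 scan day were added after seeing the data. Promoters came from RefSeq (GRCr8).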

Additional observations from a re-analysis of the deposited data

Results flagged for a closer look

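Among the 57 named ProbeSets 285 groups of 4 rats were searched for an array far from the other 3 (Dixon's test at the 95% level), which chance alone finds in about 1 of 20 groups, and 24 (8.42%) had one. Line-A replicate 1 held 5 of them, lowest for *Slc2a2* at 10.93 and *Slc4a2* at 6.45 and highest for *Slc27a2* at 13.10, *Slc41a2* at 11.55 and the second *Slc44a1* ProbeSet at 7.11. Line-A replicate 4 was lowest for *Slc17a3* at 7.33 and *Slc22a7* at 10.23 and highest for *Slc30a9* at 7.84. H/W replicate 3 was lowest for *Slc14a2* at 4.31 and highest for *Slc25a5* at 12.62 and *Slc39a4* at 6.59. H/W replicate 1 was lowest for *Slc35f5* at 8.73, and H/W replicate 4 for *Slc37a4* at 9.69. L-E replicate 3 was lowest for *Slc30a6* at 6.51 and *Slc30a9* at 7.03, L-E replicate 2 was highest for the first *Slc44a1* ProbeSet at 5.20 and L-E replicate 4 for *Slc48a1* at 6.26. Among S-D rats, replicate 1 was highest for *Slc25a1* at 10.74 and lowest for *Slc35c1* at 4.22, replicate 2 was lowest for *Slc45a3* at 7.06, replicate 3 for the second *Slc20a2* ProbeSet at 7.04, and replicate 4 was highest for *Slc27a2* at 12.74. Line-C replicate 1 was lowest for *Slc23a2* at 4.17 and replicate 4 highest for *Slc48a1* at 6.49.

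The difference of H/W from L-E and that of Line-A from Line-C were unequal by limma's test of the difference itself in 8 members. The gaps were 1.42 for *Slc17a3*, 0.81 for *Slc39a1*, 0.48 for *Slc48a1*, -0.33 for *Slc25a3*, -0.36 for *Slc25a5*, -0.42 for *Slc39a8*, -0.48 for *Slc38a3* and -0.98 for *Slc39a4*.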

How the results depend on the processing

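Counts of called members moved by over 1.5 times under several settings, and the cause was not tested. Array weights gave 27 of 105 members by the F-test, a smaller share than the 35.5% of all ProbeSets. They gave 7 for H/W against L-E, 5 for Line-A against Line-C, 16 for L-E and 17 for H/W, each against S-D, and 33 and 27 for the lines against S-D. For Line-A and Line-C against L-E they gave 25 and 19, for the *Ahr* coefficient 5 and for the difference between strains and lines 24. The scan day as a random block gave 3 by the F-test, 2, 9 and 3 for H/W, Line-A and Line-C against S-D, 6 and 2 for Line-A and Line-C against L-E, 4 and 0 for the lines against H/W (27 members at an unadjusted p under 0.05 for the last by limma), 4 for *Ahr* (*Slc16a7*, *Slc17a3*, *Slc39a4* and *Slc48a1*) and 8 outside both parents. Equal array medians gave 1 for H/W against L-E, 3 for Line-C against H/W, 0 for *Ahr* (20 at an unadjusted p under 0.05 by limma) and 4 between strains and lines. Quantile normalisation gave 3 for Line-C against H/W, expressed ProbeSets alone gave 3 for *Ahr*, and the 16 arrays without S-D gave 3 by the F-test. The replicate numbers did not pair the rats, since the deviations of same-numbered arrays correlated at -0.341 to 0.216 and in 6 of 40 pairs over 0.1. With the replicate number as a replicate block the counts were 11 by the F-test, 1 for Line-A against Line-C, 5 for Line-C against S-D, 8 and 1 for Line-A and Line-C against H/W, and 0 for *Ahr* (20 at an unadjusted p under 0.05 by limma). For *Slc48a1* the block gave limma adjusted p-values of 0.0575 for the *Ahr* coefficient and 0.0112 between the lines, and for the F-test of *Slc41a2* and of the first *Slc31a1* ProbeSet 0.00157 and 0.00274, none past the threshold.

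On leaving out each array in turn the counts ran from 10 to 18 by the F-test, 1 to 4 for H/W against L-E, 1 to 3 between the lines, against S-D 8 to 11 for L-E, 4 to 9 for H/W, and, in the lines, 15 to 26 with Line-A and 4 to 11 with Line-C, 11 to 24 and 7 to 15 for the lines against L-E, 6 to 13 and 0 to 10 for the lines against H/W, 0 to 1 for *Ahr*, 17 to 26 outside both parents and 5 to 9 between strains and lines. In these fits without 1 array, 3.31% to 5.23% of all ProbeSets passed the F-test. Of 2515 recomputed differences of named ProbeSets 2129 kept their sign and side of the threshold, 386 kept the sign only and 0 changed sign.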
